A study of Mus musculus with 2 samples.

Results

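The choroid plexus genes are 10 genes used as markers of the epithelium that lines the choroid plexus: Ttr, Folr1, Prlr, Kl, Aqp1, Clic6, Cldn2, Enpp2, Sostdc1 and Calml4. They were chosen by symbol, each matched to 1 Ensembl identifier, and all 10 were found among the 43346 annotated genes of the deposited mm10 tables. The choroid plexus hangs as folded sheets in the ventricles of the brain. Its epithelial cells form a tight barrier between blood and cerebrospinal fluid, pump ions and water into that fluid, and secrete carrier proteins and growth factors into it. In the mouse the tissue arises at the dorsal midline of the hindbrain and of the forebrain around mid-gestation and grows until birth.

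The RNA came from whole brains of C57BL/6J embryos, taken at embryonic day 14.5, an age when several parts of the choroid plexus are present. Polyadenylated RNA was sequenced in 2 libraries, labelled biological replicates 2 and 1 of 1 group, with no genotype or treatment that differs between them. The labels describe littermates of both sexes but do not say which embryos, or how many, went into each library. The spread between the libraries may therefore be technical in part, and 1 library against 1 gives no test, so no p-value stands behind any difference below. The libraries held 97539730 expected counts on annotated genes in replicate 2 against 103493289 in replicate 1, of which the 10 genes took 0.0979% and 0.0738% in replicates 2 and 1. Across 15240 genes averaging 1 TPM or more, the median difference of log2(TPM + 1), replicate 2 minus replicate 1, was 0.01, and the middle 90% lay between -0.64 and 0.78. TPM is a gene's share of all transcripts in a library, set per transcript length, so it can be compared between genes. The mitochondrial share of all TPM was 12.2% in replicate 2 against 8.49% in replicate 1.

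Of the 10 genes, 7 reached 1 TPM or more in both libraries, against 62.2% of protein-coding genes and 33.9% of all annotated genes. Ttr stood far above the others at a mean of 1165 TPM. The other 6 detected genes, Enpp2, Folr1, Aqp1, Sostdc1, Clic6 and Calml4, had means between 7.12 and 24.7 TPM. Cldn2, Kl and Prlr lay below 1 TPM in both libraries, with means of 0.33 to 0.47 TPM. All 10 genes had a higher TPM in replicate 2 than in replicate 1, and 9 of them also after a trend with transcript length was removed, where Prlr turned to a log2 difference of -0.32. In whole tissue, fewer cells of a type and less RNA per cell cannot be told apart.

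**Figure D1:**
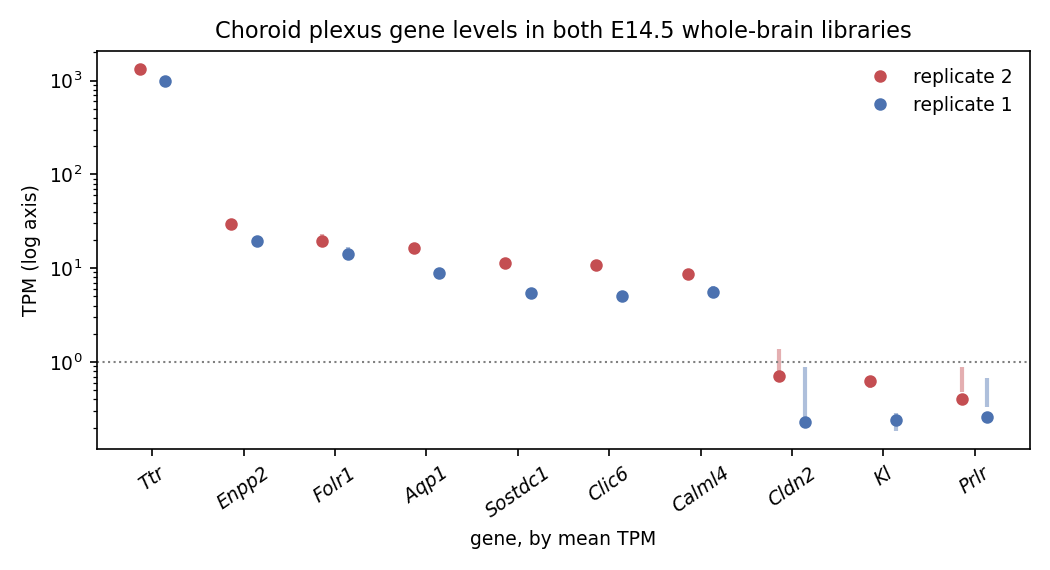
TPM (log axis) of the 10 choroid plexus genes in replicate 2 (left point of each pair) and replicate 1 (right point). Vertical lines are the deposited bounds of the posterior mean, hidden by the points for most genes, and the dotted line marks 1 TPM. Ttr lies at 1336 and 994 TPM in replicates 2 and 1, the next 6 genes between 5.01 and 29.7 TPM, and Cldn2, Kl and Prlr between 0.23 and 0.71 TPM.

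Ttr encodes transthyretin, the carrier of thyroid hormone and of retinol-binding protein that the choroid plexus secretes into cerebrospinal fluid. It was measured at 1336.44 TPM in replicate 2 against 994.22 TPM in replicate 1, from 82696 and 67985 expected counts (mean 1165 ± 242 TPM, SD, n = 2). The ratio of replicate 2 over replicate 1 was 1.34 by TPM. Ttr (chromosome 18, 20665280 to 20674321, plus strand, mm10) ranked 53rd among protein-coding genes in replicate 2 and 89th in replicate 1. It made up 93.2% of the summed TPM of the 10 genes in replicate 2 against 94.3% in replicate 1. The other 9 genes together came to 98.2 TPM in replicate 2 against 59.5 TPM in replicate 1.

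Hepatocytes and the retinal pigment epithelium also make transthyretin. Of their markers, 3 of 9 and 2 of 8 reached 1 TPM or more in both libraries. The 9 hepatocyte and yolk sac markers summed to 9.88 TPM in replicate 2 against 11.7 TPM in replicate 1. Afp, the fetal counterpart of albumin, led them at 2.83 and 5.18 TPM in replicates 2 and 1, followed by the apolipoprotein genes Apoa1 at 2.27 and 3.69 TPM in replicates 2 and 1 and Apoa2 at 2.83 and 2.22 TPM in replicates 2 and 1. Alb, the serum albumin gene, stood at 1.33 and 0.35 TPM in replicates 2 and 1, and the liver transcription factor gene Hnf4a at 0.04 and 0.01 TPM in replicates 2 and 1. The 8 pigment epithelium markers summed to 20.5 TPM in replicate 2 against 41.7 TPM in replicate 1, mostly from the retinoid-binding protein gene Rlbp1 (16.5 and 33.4 TPM in replicates 2 and 1). The melanin pathway gene Dct stood at 1.93 and 5.23 TPM in replicates 2 and 1. Rpe65, the visual cycle isomerase that defines the pigment epithelium, was at 0 in both libraries. Tyr, the melanin enzyme gene, was at 0.09 and 0.05 TPM in replicates 2 and 1. The part of liver, yolk sac or pigment cells in the Ttr level was not tested.

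The genes that handle what transthyretin carries lay closer to even between the libraries. Of 8 thyroid hormone and retinol partners, 6 averaged 1 TPM or more, of which none was 1.5-fold or more higher in replicate 2 and 1 was as much lower. The receptor gene Thra led them at 457 TPM in replicate 2 against 511 TPM in replicate 1. Crym, which encodes a thyroid hormone-binding protein, stood at 11.9 and 16.7 TPM in replicates 2 and 1. Dio3, the deiodinase that inactivates thyroid hormone, was lower in replicate 2, at 4.77 TPM against 10.7 TPM in replicate 1. Ttr reads kept to the annotated splice sites: 141365 junction reads crossed its 3 annotated introns, and unannotated junctions held 0.439% of its junction reads (exact 95% interval 0.405 to 0.475%, counting error only). The commonest unannotated junction, with 111 reads, used an acceptor a few bases inside an annotated exon, and 62 reads skipped a whole internal exon.

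Folr1 encodes folate receptor alpha, which moves folate across the choroid plexus epithelium into cerebrospinal fluid. Its TPM was 19.27 in replicate 2 against 14.06 in replicate 1, from 794 and 736 expected counts (mean 16.7 ± 3.68 TPM, SD, n = 2). The TPM ratio was 1.37. With expected counts scaled by edgeR TMM, the log2 difference of Folr1 was 0.20, against 0.43 on the log2(TPM + 1) scale. Folr1 (chromosome 7, 101858331 to 101870788, minus strand) overlaps Anapc15 on the opposite strand, which stood at 70.0 and 99.2 TPM in replicates 2 and 1. The libraries are stranded per the labels, but whether reads were counted by strand was not given in the labels or files used here, so the reads of the overlap are uncertain.

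The transcript table divided Folr1 over several starts. Folr1-201, whose first exon of 221 bases extends a shared internal exon of 170 bases upstream, took 38.4% of the TPM in replicate 2 against 36.5% in replicate 1. Folr1-203, with 7 exons and the farthest upstream start, took 24.1% and 33.0% in replicates 2 and 1, and Folr1-211 took 17.3% and 17.5% in replicates 2 and 1. Of the expected counts, Folr1-201 had 42.9% and Folr1-203 39.4% in replicate 2, and 35.2% and 46.8% in replicate 1, so by counts the leading form was not the same in both libraries. Folr1-213, a model of 331 bases, took 16.9% in replicate 2 against 3.85% in replicate 1. The 2 leading models encode the same 255 codons, so the choice changes the start and not the protein. In the junction file, on mm9 coordinates, 276 reads joined the 170-base exon to exons upstream of it and 245 joined it to the next coding exon, so about as many reads entered this exon as left it. A transcript that begins in that exon, as Folr1-201 does, would add reads only on the leaving side.

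The partners of Folr1 were measured in both libraries, all 6 at 1 TPM or more. The reduced folate carrier gene Slc19a1 led with 51.2 TPM in replicate 2 against 65.6 TPM in replicate 1, followed by the proton-coupled folate transporter gene Slc46a1 at 11.8 and 12.5 TPM in replicates 2 and 1. Shmt1, a folate cycle enzyme gene, was lower in replicate 2 (4.96 TPM against 11.3 TPM in replicate 1). Of the 6, 1 was 1.5-fold or more higher in replicate 2 and 1 as much lower.

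Prlr, the prolactin receptor gene, and Kl, the gene of klotho, a co-receptor for fibroblast growth factor 23, were the other receptor genes, and both were near the lower end. Prlr had 0.40 TPM in replicate 2 against 0.26 TPM in replicate 1, from 209 and 146 expected counts (mean 0.33 ± 0.099 TPM, SD, n = 2). Its deposited bounds, 0.48 to 0.88 TPM in replicate 2 and 0.33 to 0.67 TPM in replicate 1, belong to a posterior mean and lay above the TPM itself. They overlapped between the libraries. Kl had 0.62 TPM in replicate 2 against 0.24 TPM in replicate 1, from 187 and 79 expected counts (mean 0.43 ± 0.269 TPM, SD, n = 2). Its TPM ratio of 2.58 was the highest of the 10 genes after that of Cldn2, and its bounds did not overlap. Kl lies on chromosome 5 (150952607 to 150993817, plus strand) and Prlr on chromosome 15 (10177238 to 10349180, plus strand).

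Prlr can give a long receptor with the full signalling tail or short forms that lack most of it. Prlr-202, which encodes the long form of 608 codons, held 82.5% of the Prlr TPM in replicate 2 against 77.8% in replicate 1, and 93.7% and 94.0% of its expected counts in replicates 2 and 1. The short-form models Prlr-204 and Prlr-205, of 292 and 310 codons, were at 0 TPM in replicate 2, and at 0 and 0.02 TPM in replicate 1. The table thus placed most Prlr reads on the long form, but only 31 junction reads covered annotated Prlr introns, too few to check it. Prolactin (Prl) and growth hormone (Gh) were at 0 in both libraries. The signalling genes of the receptor were present: Socs2 at 45.2 and 47.4 TPM in replicates 2 and 1, Jak2 at 22.5 and 22.6 TPM in replicates 2 and 1 and Stat5b at 16.3 and 13.6 TPM in replicates 2 and 1. Among the 8 prolactin partners, 6 averaged 1 TPM or more, of which 1 was 1.5-fold or more higher in replicate 2 and none as much lower.

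For Kl, the ligand gene Fgf23 was at 0.26 TPM in replicate 2 against 0.24 TPM in replicate 1, and the klotho-regulated channel gene Trpv5 was at 0 in both. Fibroblast growth factor receptor genes were abundant at the gene level. Fgfr3 stood at 55.6 and 91.9 TPM in replicates 2 and 1, and Fgfr2 at 40.3 and 40.8 TPM in replicates 2 and 1. Fgfr1 stood at 44.1 and 28.5 TPM in replicates 2 and 1. Adam10, a protease gene whose product sheds klotho from the membrane, stood at 42.8 and 35.2 TPM in replicates 2 and 1. Of the 5 expressed members of this list of 8, 1 was 1.5-fold or more higher in replicate 2 and 1 as much lower.

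Aqp1 encodes aquaporin-1, the water channel of the apical membrane of the choroid plexus. Its TPM was 16.45 in replicate 2 against 8.96 in replicate 1, from 2437 and 1475 expected counts (mean 12.7 ± 5.30 TPM, SD, n = 2), a ratio of 1.84. Red blood cells carry aquaporin-1 too. All 7 erythroid markers were higher in replicate 2, and they summed to 5025 TPM there against 4614 TPM in replicate 1. Hbb-bs, a globin gene with near-identical copies whose value is therefore uncertain, led them at 2913 and 2905 TPM in replicates 2 and 1, and the heme synthesis gene Alas2 stood at 17.4 and 9.88 TPM in replicates 2 and 1. The part of red cells in the Aqp1 difference was not tested. Aqp1 lies on chromosome 6 (55336432 to 55348555, plus strand) and has 1 transcript in the table.

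Clic6, a chloride intracellular channel family gene, had the highest TPM ratio of the 7 detected genes, although Sostdc1 (1.04) was above Clic6 (0.89) in log2 difference with the length trend removed. It had 10.9 TPM in replicate 2 against 5.01 TPM in replicate 1, from 2371 and 1213 expected counts (mean 7.96 ± 4.16 TPM, SD, n = 2), a ratio of 2.18. Clic6 (chromosome 16, 92485736 to 92541243, plus strand) shares its strand with the overlapping transcript gene 2410124H12Rik, which was at 0.30 and 0.33 TPM in replicates 2 and 1.

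Cldn2 encodes claudin-2, the tight junction protein that makes leaky epithelia permeable to cations and water. It had 0.71 TPM in replicate 2 against 0.23 TPM in replicate 1, from 124 and 44 expected counts (mean 0.47 ± 0.339 TPM, SD, n = 2). Its TPM ratio of 3.09 was the highest of the 10 genes, but its bounds overlapped, at 0.64 to 1.39 TPM in replicate 2 and 0.20 to 0.89 TPM in replicate 1. Counting error alone, the square root of the count over the count, was 8.98% in replicate 2 against 15.1% in replicate 1. Cldn2 lies on the X chromosome (139800828 to 139811386, plus strand). Only 4 junction reads crossed its annotated introns.

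Enpp2 encodes autotaxin, a secreted enzyme that makes lysophosphatidic acid and is abundant in cerebrospinal fluid. Besides choroid plexus, other cells of the nervous system, among them oligodendrocyte precursors, express it. Its TPM was 29.73 in replicate 2 against 19.72 in replicate 1, from 5278 and 3886 expected counts (mean 24.7 ± 7.08 TPM, SD, n = 2), a ratio of 1.51. Enpp2 lies on chromosome 15 (54838901 to 54952892, minus strand). The oligodendrocyte and myelin markers summed to 115 TPM in replicate 2 against 97.3 TPM in replicate 1, led by Olig1 (46.6 and 39.5 TPM in replicates 2 and 1) and Olig2 (19.8 and 22.9 TPM in replicates 2 and 1), while the mature myelin gene Mog was at 0.01 and 0 TPM in replicates 2 and 1. The part of these cells in the Enpp2 level was not tested.

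The receptor genes of lysophosphatidic acid and the genes of the phosphatases that degrade it lay near even between the libraries. Of the 8 partners, 6 averaged 1 TPM or more, and none of these was 1.5-fold or more higher or lower in replicate 2. Plpp3 led with 44.8 TPM in replicate 2 against 50.9 TPM in replicate 1, Plpp1 followed at 22.6 and 23.1 TPM in replicates 2 and 1, and Lpar1, the highest of the receptors, stood at 9.08 and 10.5 TPM in replicates 2 and 1.

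Enpp2 is spliced into forms that differ by 3 stretches of coding sequence, each a multiple of 3 bases. They are shown because both the transcript table and the junction reads bear on them. Capitals mark the alternative sequence and small letters the neighbouring exons or the rest of the exon, read along the transcript from GENCODE vM21 (mm10, minus strand), at chr15:54877776-54877931 for the 156-base exon, chr15:54851348-54851422 for the 75-base exon and chr15:54862498-54862509 for the 12 bases.
Enpp2 156-base exon: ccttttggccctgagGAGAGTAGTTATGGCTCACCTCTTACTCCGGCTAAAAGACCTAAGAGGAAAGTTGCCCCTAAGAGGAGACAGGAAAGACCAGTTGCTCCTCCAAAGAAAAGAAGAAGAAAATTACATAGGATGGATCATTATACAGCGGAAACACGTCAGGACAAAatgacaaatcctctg
Enpp2 75-base exon: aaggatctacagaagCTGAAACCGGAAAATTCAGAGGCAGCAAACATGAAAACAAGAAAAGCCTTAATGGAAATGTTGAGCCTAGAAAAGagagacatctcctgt
Enpp2 12 bases at the end of the 185-base exon: tgcacctgtgatgataagGTAGAGCCAAAG

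The 156-base exon adds 52 codons and is the insert of the alpha form of autotaxin. The 75-base exon adds 25 codons and is the insert of the gamma form, described in brain. The form without either, beta, corresponds to Enpp2-201 with 862 codons, which held 78.8% of the Enpp2 TPM in replicate 2 against 78.2% in replicate 1. The models that hold the 156-base exon, Enpp2-203 and Enpp2-204, together held 19.6% and 20.8% in replicates 2 and 1. In the junction reads, 8 and 2 reads joined the 156-base exon to its neighbours while 398 reads skipped it, an inclusion of 1.24%. The same exon thus stood at 20.2% in the transcript table, as the mean of both libraries, and at 1.24% in the junction reads. The cause was not tested.

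For the other stretches of Enpp2 the readouts lay closer together. The 75-base exon had 5 and 9 joining reads and 407 skipping reads, an inclusion of 1.69%, and its model Enpp2-202 held 1.55% of the TPM in replicate 2 against 0.862% in replicate 1. The 12 bases at the end of the 185-base exon were kept in 408 of 519 junction reads, 78.6% (exact 95% interval 74.8 to 82.1%). The models that keep them held 91.9% of the TPM in replicate 2 against 89.4% in replicate 1. Shorter by 4 codons, the form without them was seen in 111 reads, or 21.4%, and was the commonest alternative form of Enpp2 in the junction reads.

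**Figure D2:**
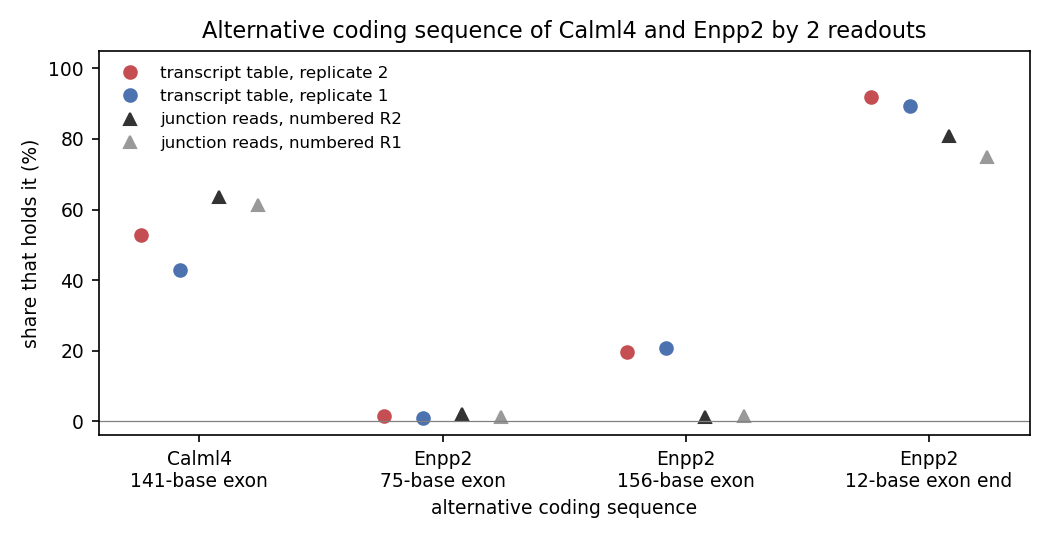
Share (%) of Calml4 or Enpp2 that holds each alternative coding sequence, by the transcript table (circles, percent of TPM in replicate 2 and replicate 1) and by junction reads (triangles, percent of reads numbered R2 and R1 in the mm9 junction file, whose numbers are not tied to a library). For the 156-base exon of Enpp2 the circles lie at 19.6 and 20.8% in replicates 2 and 1 and the triangles at 1.15 and 1.34% of reads numbered R2 and R1. For the 141-base exon of Calml4 the triangles, at 63.5 and 61.4% of reads numbered R2 and R1 with the longer skips left out, lie above the circles, at 52.7 and 42.8% in replicates 2 and 1.

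Sostdc1 encodes a secreted antagonist of bone morphogenetic protein and Wnt signals. It had 11.45 TPM in replicate 2 against 5.43 TPM in replicate 1, from 1082 and 569 expected counts (mean 8.44 ± 4.26 TPM, SD, n = 2), a ratio of 2.11. The values lay close to those of Clic6 in both libraries. Sostdc1 lies on chromosome 12 (36314139 to 36318452, plus strand). Of its 8 partners, 7 averaged 1 TPM or more, all 7 higher in replicate 2. Of these, 2 were 1.5-fold or more higher. The Wnt co-receptor gene Lrp6 led at 19.5 TPM in replicate 2 against 18.7 TPM in replicate 1, with the receptor genes Bmpr2 at 20.4 and 16.6 TPM in replicates 2 and 1 and Bmpr1a at 18.2 and 17.6 TPM in replicates 2 and 1. Lrp5, another Wnt co-receptor gene, stood at 8.14 TPM in replicate 2 against 4.01 TPM in replicate 1.

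Calml4 encodes a calmodulin-like light chain of the myosin of intestinal and renal brush borders. It had 8.62 TPM in replicate 2 against 5.63 TPM in replicate 1, from 309 and 216 expected counts (mean 7.12 ± 2.11 TPM, SD, n = 2), a ratio of 1.53. Calml4 lies on chromosome 9 (62858080 to 62875921, plus strand). Its brush border partners were nearly absent apart from Ezr, the gene of the membrane linker ezrin, at 33.8 TPM in replicate 2 against 35.5 TPM in replicate 1. Of the 7 partners, Ezr was the 1 at 1 TPM or more in both libraries. Ush1c followed at 0.60 and 1.00 TPM in replicates 2 and 1, and Cdhr2, a brush border protocadherin gene, at 0.05 and 0.13 TPM in replicates 2 and 1. The other 4 had means of 0.05 TPM or less, among them Myo7b, the gene of the myosin that the Calml4 protein binds in the intestine, at 0.01 and 0 TPM in replicates 2 and 1.

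Calml4 was split between a form with a 141-base coding exon of 47 codons and a form without it. The exon is shown in capitals, between the ends of its neighbouring exons, at chr9:62868677-62868817 (mm10, plus strand, GENCODE vM21).
Calml4 141-base exon: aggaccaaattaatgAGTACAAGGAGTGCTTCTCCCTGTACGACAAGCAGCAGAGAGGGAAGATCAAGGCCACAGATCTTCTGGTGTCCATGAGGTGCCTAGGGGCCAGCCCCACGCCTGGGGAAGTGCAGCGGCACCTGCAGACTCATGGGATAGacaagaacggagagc

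Calml4-201, which holds the exon and encodes 153 codons, had 52.7% of the Calml4 TPM in replicate 2 against 42.8% in replicate 1. Calml4-202, of 106 codons, had 47.3% and 57.2% in replicates 2 and 1. Of the expected counts, Calml4-201 had 58.6% and Calml4-202 41.4% in replicate 2, and 49.0% and 51.0% in replicate 1. The leading form was therefore not the same in both libraries. In the junction reads, 94 and 56 reads joined the exon to its neighbours and 45 skipped it, an inclusion of 62.5%. The ends of the exon gave unequal shares: by the upstream intron, 67.6% of 139 reads entered the exon (exact 95% interval 59.2 to 75.3%), and by the downstream intron, 55.4% of 101 reads left it (45.2 to 65.3%). Another 18 reads, on a junction that the mm9 annotation does not hold, skipped a 31-base exon before it together with the 141-base exon itself. With skips of any length counted, a choice made after the data were seen, 65 reads skipped the 141-base exon, which gave an inclusion of 53.6%, and 47.1% of 119 downstream reads left it (37.8 to 56.4%). Neither readout fixed which form led.

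Promoter windows, from 250 bases before to 50 bases after an annotated start, were given by RefSeq (GRCm38.p6) for 5 of the 10 genes, 7 windows in all: 1 each for Kl, Aqp1, Cldn2 and Calml4 and 3 for Prlr. They were searched on both strands for TAATCC, the core bound by OTX factors, GTTGCC, a motif of RFX factors, and GTAAACA, bound by forkhead factors such as FOXJ1. Shares over all 27025 genes count only the first listed window of each gene. TAATCC was in none of the 7 windows and in 7.16% of all genes. GTTGCC was in the Aqp1 window alone (12.7% of all), and GTAAACA in 1 of the Prlr windows alone (3.55% of all). That Prlr window is not the first listed for its gene, so its match and the 3.55% are not on the same unit. No window held more than 1 match, so no matches overlapped, and a match is a description of letters, not a site. The Kl window held 19 CpG dinucleotides, against 2 to 8 in the other windows and a median of 7 over the first listed windows of all genes. The windows with a match are shown on the plus strand with the match in capitals, Aqp1 at chr6:55336049-55336348 and the Prlr window that ends just before the start of the short-form models at chr15:10223656-10223955.
Aqp1 promoter window: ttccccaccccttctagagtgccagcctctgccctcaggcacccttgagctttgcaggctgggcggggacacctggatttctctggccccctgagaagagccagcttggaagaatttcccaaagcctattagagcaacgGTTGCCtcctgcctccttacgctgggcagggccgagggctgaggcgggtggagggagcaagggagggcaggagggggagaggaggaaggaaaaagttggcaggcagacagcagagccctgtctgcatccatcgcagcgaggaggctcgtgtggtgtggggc
Prlr promoter window: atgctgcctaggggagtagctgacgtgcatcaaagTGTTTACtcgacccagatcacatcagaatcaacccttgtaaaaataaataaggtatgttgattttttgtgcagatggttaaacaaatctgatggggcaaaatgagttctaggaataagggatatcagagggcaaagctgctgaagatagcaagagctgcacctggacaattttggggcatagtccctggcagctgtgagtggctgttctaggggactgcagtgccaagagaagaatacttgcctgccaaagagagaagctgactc

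By mean TPM the order was Ttr, Enpp2, Folr1, Aqp1, Sostdc1, Clic6, Calml4, Cldn2, Kl and Prlr. Of the 9 pairs of neighbours in this order, 3 had ranges over the libraries that did not overlap: Ttr above Enpp2, Enpp2 above Folr1, and Calml4 above Cldn2. Folr1 and Aqp1, Aqp1 and Sostdc1, and Sostdc1 and Clic6 overlapped in range but kept their order in both libraries. Clic6 and Calml4, Cldn2 and Kl, and Kl and Prlr changed places between the libraries. The 10 genes thus fell into Ttr, a middle set of 6 and a low set of 3, with gaps of 47.1-fold between Ttr and Enpp2 and 15.2-fold between Calml4 and Cldn2 in mean TPM.

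Between the libraries, 10 of 10 genes were higher in replicate 2 by TPM (9 of 10 with the length trend removed, Prlr excepted), against 51% of the 15240 genes averaging 1 TPM or more and 54% of the 24468 genes with any TPM. Of the 7 genes at that level, 5 were 1.5-fold or more higher (13.1% of all genes) and none as much lower (8.46% of all). Of these, 2, Clic6 and Sostdc1, were 2-fold or more higher (4.6% of all) and none as much lower (1.89% of all). With the low genes Cldn2, Kl and Prlr included, 8 of 10 were 1.5-fold or more higher (24.9% of the genes with any TPM) and none as much lower (14.9%). Of the 10, 4 were 2-fold or more higher (16% of the genes with any TPM) and none as much lower (8.67%). The median difference of log2(TPM + 1), replicate 2 minus replicate 1, was 0.51 over the 10 genes and 0.57 over the 7, against 0.01 over all genes. With scaled counts (edgeR TMM) the log2 differences of the low genes were larger than on the log2(TPM + 1) scale, at 1.56 against 0.48 for Cldn2, 1.32 against 0.39 for Kl and 0.61 against 0.15 for Prlr, while that of Kl was 0.18 with the length trend removed. The deposited bounds of replicate 2 lay above those of replicate 1 for 8 of the 10 genes, all but Cldn2 and Prlr, against 34.2% of the genes averaging 1 TPM or more and 24.4% of those with any TPM. The 10 genes were not independent of one another, since they were picked as markers of 1 tissue.

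**Figure D3:**
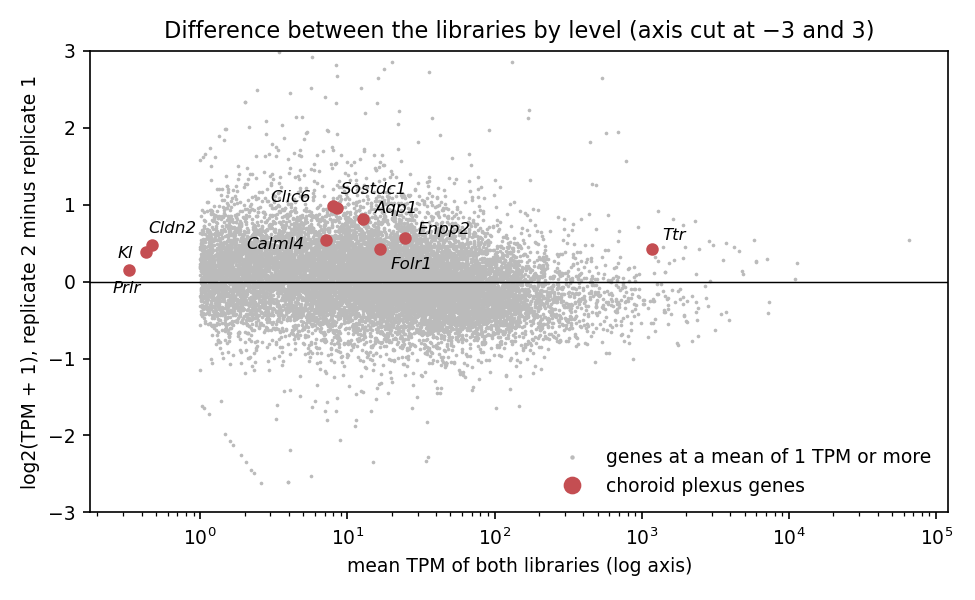
Difference of log2(TPM + 1), replicate 2 minus replicate 1, against mean TPM (log axis) for 15240 genes averaging 1 TPM or more (grey) and the 10 choroid plexus genes (red). All 10 lie above 0, between 0.15 for Prlr and 0.99 for Clic6 on this scale. The vertical axis ends at -3 and 3, and 32 genes lie outside it.

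By role, the ratio of summed TPM, replicate 2 over replicate 1, ran from 1.34 for the carrier Ttr to 1.98 for the channel and junction genes. The channel and junction genes Aqp1, Clic6 and Cldn2 summed to 28.1 TPM in replicate 2 against 14.2 TPM in replicate 1. The secreted genes Enpp2 and Sostdc1 summed to 41.2 TPM in replicate 2 against 25.2 TPM in replicate 1, a ratio of 1.64. The receptor genes Folr1, Prlr and Kl summed to 20.3 TPM in replicate 2 against 14.6 TPM in replicate 1, a ratio of 1.39. The brush border gene Calml4 lay between these, with its ratio of 1.53. The difference in the summed TPM of all 10, 1435 in replicate 2 against 1054 in replicate 1, came mostly from Ttr.

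Other genes of the choroid plexus, in lists of specification, transport, secreted and receptor genes, were mostly higher in replicate 2 as well. Of 57 genes, 51 averaged 1 TPM or more, of which 42 were higher in replicate 2, 21 by 1.5-fold or more, and 1 was as much lower. Over all 15240 genes at that level, 51% were higher in replicate 2, 13.1% by 1.5-fold or more, and 8.46% were as much lower. These shares are also the comparison for the counts of each single list. Their median difference on the log2(TPM + 1) scale was 0.39. Over the lists of partners, 37 of 53 genes averaged 1 TPM or more, of which 19 were higher in replicate 2, 5 by 1.5-fold or more, and 3 were as much lower, with a median of 0.00. These partner counts lay near the shares over all genes. The choroid plexus lists and the 10 genes thus lay to the same side of 0, and the pooled genes of the pathways they act in lay around 0. By single partner list, the medians of genes averaging 1 TPM or more ran from -0.21 for Folr1 to 0.28 for Sostdc1. Medians above 0 were also found for hindbrain segment genes (1.92), endothelial markers (0.49) and meningeal and stromal markers (0.47). The same held for the erythroid (0.39), oligodendrocyte and myelin (0.36), multiciliated cell (0.21) and epidermal (0.11) lists. A median above 0 was thus not particular to the choroid plexus lists. Medians below 0 were found for forebrain patterning genes (-1.04), pigment epithelium markers (-0.66) and hepatocyte and yolk sac markers (-0.52).

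Among the specification genes, which set up the roof plate and the choroid plexus field, Otx2 led at 46.9 TPM in replicate 2 against 35.3 TPM in replicate 1. The ligand gene Bmp7 stood at 19.8 and 12.3 TPM in replicates 2 and 1, and the transcription factor gene Msx1 at 12.9 and 10.2 TPM in replicates 2 and 1. Msx2, a related factor gene, had 1.87 TPM in replicate 2 against 0.52 TPM in replicate 1. Of the 10 expressed specification genes, 3 were 1.5-fold or more higher in replicate 2 and none as much lower. The multiciliated cell genes, whose programme choroid plexus cells share with ependymal cells, were closer to even: of 7 expressed, 4 were higher in replicate 2, 1 of them by 1.5-fold or more. Foxj1, the master regulator of motile cilia, stood at 22.6 and 18.4 TPM in replicates 2 and 1, Rfx3 at 16.5 and 14.1 TPM in replicates 2 and 1 and Rfx2 at 6.37 and 5.36 TPM in replicates 2 and 1.

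Of the 19 expressed transport genes, 6 were 1.5-fold or more higher in replicate 2 and none as much lower. Among the most abundant, the monoamine transporter gene Slc29a4, also expressed elsewhere in brain, stood at 92.6 and 89.4 TPM in replicates 2 and 1. Atp1b1, a sodium pump subunit gene, was at 96.3 and 64.7 TPM in replicates 2 and 1. The genes 2-fold or more higher were Slc4a5, a bicarbonate transporter gene of the apical membrane (5.38 and 1.71 TPM in replicates 2 and 1), and the potassium channel gene Kcnj13 (5.18 and 2.24 TPM in replicates 2 and 1).

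Of the 9 expressed secreted protein genes, 5 were 1.5-fold or more higher in replicate 2. The protease inhibitor gene Cst3 (354 and 413 TPM in replicates 2 and 1) and the growth factor-binding protein gene Igfbp2 (292 and 271 TPM in replicates 2 and 1) led the list with the growth factor gene Igf2 (348 and 194 TPM in replicates 2 and 1). Sulf1, a heparan sulfate sulfatase gene, had 40.3 TPM in replicate 2 against 17.1 TPM in replicate 1, and Cp, the gene of the copper carrier ceruloplasmin, 7.06 and 2.74 TPM in replicates 2 and 1. Among 13 expressed receptor, enzyme and junction genes, 7 were 1.5-fold or more higher and 1 as much lower in replicate 2. The serotonin receptor gene Htr2c had 6.43 TPM in replicate 2 against 3.11 TPM in replicate 1, Col8a2 4.88 and 1.23 TPM in replicates 2 and 1, and Mfrp 2.29 and 1.10 TPM in replicates 2 and 1. The collagen gene Col9a3 (28.5 and 26.1 TPM in replicates 2 and 1), the tight junction gene Tjp1 (28.3 and 21.4 TPM in replicates 2 and 1) and the retinol dehydrogenase gene Rdh5 (16.5 and 19.6 TPM in replicates 2 and 1) led that list by level.

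**Figure D4:**
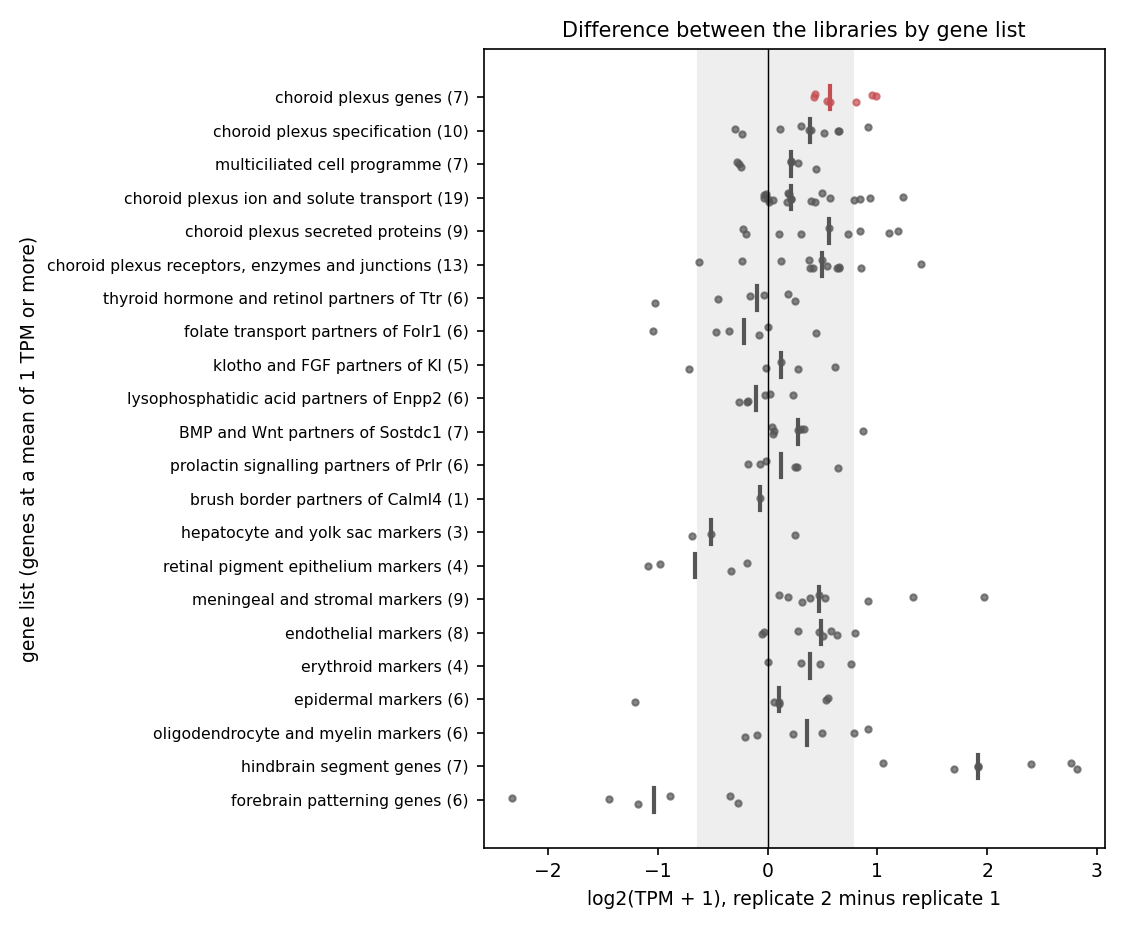
Difference of log2(TPM + 1), replicate 2 minus replicate 1, for genes averaging 1 TPM or more, with 1 row for the choroid plexus genes (red, top) and 1 for each gene list, its gene number in brackets. Points are genes, short vertical lines medians, and the grey band holds the middle 90% of 15240 genes, between -0.64 and 0.78. Hindbrain segment genes lie to the right with a median of 1.92 and forebrain patterning genes to the left with a median of -1.04.

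Markers of regions and of other cell types also differed between the libraries, some lists higher and some lower in replicate 2. All 7 hindbrain segment genes averaging 1 TPM or more were 2-fold or more higher in replicate 2, and the list of 8 summed to 103 TPM there against 18.7 TPM in replicate 1. Hoxb3 led it with 31.8 and 3.82 TPM in replicates 2 and 1. The 6 forebrain patterning genes were each lower in replicate 2, with sums of 243 TPM in replicate 2 against 517 TPM in replicate 1, led by Lhx2 (122 and 227 TPM in replicates 2 and 1). All 9 meningeal and stromal markers were higher in replicate 2, with sums of 441 and 219 TPM in replicates 2 and 1, and 3 of them were 2-fold or more higher: Col1a1 (146 and 36.6 TPM in replicates 2 and 1), Col1a2 (143 and 56.5 TPM in replicates 2 and 1) and Pdgfra (11.1 and 5.42 TPM in replicates 2 and 1). Endothelial markers summed to 206 TPM in replicate 2 against 178 TPM in replicate 1, with 6 of 8 higher in replicate 2. Of the 8, 3 were 1.5-fold or more higher in replicate 2 and none as much lower, with a median log2 difference of 0.49. Cldn5, a tight junction gene of vessels, led by level but was near even, at 92.6 and 95.7 TPM in replicates 2 and 1. Epidermal markers summed to 92.5 and 77.9 TPM in replicates 2 and 1, with 5 of 6 higher in replicate 2, led by Krt5 at 37.8 and 25.5 TPM in replicates 2 and 1, while Krt10, a keratin gene of upper skin layers, was at 5.26 and 13.5 TPM in replicates 2 and 1. The part of brain region, meninges, vessels or skin in the differences of the choroid plexus genes was not tested.

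The deposited mm9 tables gave 2 further readouts whose numbers are not tied to a library, and so no direction in terms of replicates 2 and 1. In the gene table, the RPKM, a level per length and depth, numbered 1 was above the one numbered 2 for 9 of the 10 genes, against 27.3% of 10630 genes averaging 1 RPKM or more and 39.1% of genes with a value above 0. Folr1 was the exception, at 2.05 RPKM numbered 1 and 2.10 RPKM numbered 2. In the same order, Ttr stood at 119 and 104 RPKM and Clic6 at 1.28 and 0.709 RPKM. In the junction file, reads numbered R2 exceeded those numbered R1 for all 10 genes, although R2 held 47694368 junction reads in all and R1 52704888. The share of all genes with more R2 than R1 reads was not computed, so this count has no background beside it. It rests on few reads for Cldn2 (4 and 0 by R2 and R1), Prlr (19 and 12) and Kl (22 and 6). By R2 and R1, Ttr had 75374 and 65991 reads, Enpp2 7014 and 5003, and Clic6 565 and 261. The higher values were those numbered 1 in the gene table, Folr1 excepted, and R2 in the junction file, so no common side was shown. Both come from the same group of libraries and are not independent of the values above.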

How the data were processed

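Per the labels, polyadenylated RNA depleted of rRNA was made into stranded paired-end libraries with spike-ins. For each gene and transcript the authors deposited expected counts on mm10 with GENCODE M4, according to text notes beside the tables, which do not name the tool. The authors also deposited TPM and FPKM, both scaled with mitochondrial and spike-in rows included, and posterior mean TPM with bounds of unstated level. The deposited mm9 gene table holds RPKM on Ensembl 65, and the deposited mm9 junction file holds read counts per junction numbered R1 and R2 with a score. Neither numbering is tied to a library, and junction reads of both numbers were summed here where 1 count is given.

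Symbols and coordinates came from GENCODE vM21 by Ensembl identifier, which matched 188 of 189 list symbols (Ahsp was not matched). The 10 genes and the 21 gene lists were chosen with earlier results of these data known, so their counts are descriptions. Named genes are the 10, the 3 highest of each list by mean TPM, list genes that differ 2-fold or more while averaging 1 TPM or more, of which the text names a part, and defining markers near 0. Prl, Gh, Trpv5, Fgf23, Fgfr1 and Myo7b lie outside it and were picked with their values in view. Differences are log2(TPM + 1), which understates changes of low genes. Lower limits of counting were 3 counts. Junction intervals are exact 95% binomial intervals; intervals and limits cover counting error only. For the alternatives, expected counts were rounded and scaled by edgeR 4.0.16 (TMM) and DESeq2 1.42.0 size factors, in R 4.3.3, and a length trend was removed with a polynomial of degree 3; both steps were tested on simulated data. Python 3.11.15, numpy 2.4.6, pandas 2.3.3 and scipy 1.17.1 were used. Protein sequences, contigs and de novo models were not used here. Values of some single list genes are left out of the text, although the list counts include them.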

Additional observations from a re-analysis of the deposited data

How the results depend on the processing

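No paired analysis was possible because both libraries belong to 1 group, so the replicate numbers pair nothing and no test was made. The number of genes detected, 7 of 10, was the same with posterior mean TPM, FPKM, TPM rescaled without mitochondrial and spike-in rows, limits of 0.5 or 5 TPM and either library alone, and was 4 with mm9 RPKM. The median level, 8.2 TPM, was 5.53 TPM without replicate 2, 11.2 TPM without replicate 1, 8.17 with posterior mean TPM and 9.67 with rescaled TPM. It was 5.04 as FPKM and 1.02 as mm9 RPKM, scales that are not TPM. The median difference between the libraries was 0.51 on the log2(TPM + 1) scale and 0.40 to 0.74 over the pseudocount of 0.1, posterior mean TPM, FPKM, rescaled TPM, both count scalings and the removed length trend. The median of all genes stayed between -0.04 and 0.07 under these settings. With the length trend removed Prlr turned to -0.32, which left 9 genes higher in replicate 2, and the cause was not tested. Of 90 recalculated values of single genes, 75 stayed within a set limit, 14 moved beyond it, 13 of them differences of Folr1, Kl, Cldn2 or Prlr, and 1 turned. The limit was 1.5-fold for a difference and the SD between the libraries for a level. That SD is wide for low genes: Cldn2, at a mean of 0.47 TPM and 0.715 by posterior mean TPM, counted as within it. By expected counts, the Folr1-201 share was 39.0% against 37.4% by TPM and the Prlr-202 share 93.8% against 80.1%, since counts weight long transcripts more. By counts the Calml4-202 share was 46.2% against 52.3% by TPM, so Calml4-201 led on average, and Folr1-203, with 39.4% in replicate 2 and 46.8% in replicate 1, was above Folr1-201 in replicate 1 alone. With skips of any length counted, an alternative chosen after the data were seen, 47.1% of the downstream reads held the 141-base exon of Calml4 against 55.4%. Leaving out a library gave Folr1-201 shares of 36.5 to 38.4%, Prlr-202 shares of 77.8 to 82.5%, and Calml4-202 shares of 47.3 to 57.2%. Leaving out a library leaves no difference between libraries to compute. Cldn2, Kl and Prlr rest on 44 to 209 counts per library, and depth limits their differences most.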

Other observations

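The 10 genes lie on 9 chromosomes, and Enpp2 and Prlr share chromosome 15. By the transcript table, 6 of the 10 had a single transcript with all of their TPM. For Ttr, Kl, Aqp1 and Sostdc1 the table holds only 1 transcript, so this share was fixed in advance. Clic6 has 2 transcripts and Cldn2 has 3, of which 1 held all TPM. Folr1, Enpp2, Prlr and Calml4 were divided. Unannotated junctions held 5.72% of the junction reads of Calml4 (exact 95% interval 3.8 to 8.21%), 1.28% of Folr1 (0.731 to 2.06%), 2.02% of Clic6 (1.18 to 3.21%) and 0.612% of Enpp2 (0.481 to 0.768%). The shares of Cldn2 (55.6%, 21.2 to 86.3%), Prlr (11.4%, 3.2 to 26.7%) and Kl (6.67%, 0.818 to 22.1%) were higher but rest on few junction reads.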
